A study of Mus musculus with 12 samples.

Results

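WNT signalling was followed across 12 mouse arrays through 46 genes of ligands, receptors, inhibitors, transcription factors and targets, out of 19938 genes measured. Each gene was taken from the probe set that carried only its symbol and had the highest mean over all arrays. The list held 47 symbols, and Tcf7, which had no probe set listed under its symbol, was not analysed here. The 46 genes were 11 ligands with the ligand carrier Wls, 15 receptors, coreceptors and R-spondins, 10 inhibitors, 4 genes of the destruction complex and beta-catenin, 3 TCF/LEF factors and 2 targets. Members were listed by their place in the pathway.

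The arrays came from mouse induced pluripotent stem cells (iPSCs) and cells differentiated from them, in 4 groups of 3. The sorted group held cells of day 4 collected by flow cytometry as positive for FLK1 and PDGFRα and labelled as enriched cardiac progenitor cells (CPCs). The cardiac group held the cells of an optimized cardiac differentiation at day 4, and the spontaneous group held cells that had differentiated spontaneously by day 4. The control group held undifferentiated iPSCs at day 0, which the samples' description calls piPS cells. The labels name no strain, line, clone, passage or transgene, the abbreviation used for the cardiac condition is not expanded there, and nothing says that replicates came from separate cultures. The p-values therefore reflect only how far these samples spread, and that spread may be technical.

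WNT ligands are lipid-modified secreted proteins that reach the cell surface with the help of the carrier Wls. They bind Frizzled receptors and the coreceptors Lrp5 and Lrp6, which blocks the complex of Axin, Apc and Gsk3b that otherwise marks beta-catenin for degradation. Beta-catenin then works with TCF/LEF factors on targets such as Axin2 and Sp5, many of which restrain the pathway in turn. In the mouse embryo Wnt3 is needed for the primitive streak, from which mesoderm arises, and cardiac progenitors form from that mesoderm while later steps of heart formation need WNT activity to be restrained.

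Values are log2 RMA signals, an array measure of RNA level in which a step of 1 is a doubling of signal. Array medians over all probe sets lay between 6.09 and 6.26, no background level was measured, so whether signals near or below these medians exceed background is not known. The lowest correlation across genes between arrays of a group was 0.9656 among sorted libraries, 0.973 among cardiac cultures, 0.9922 among spontaneous cells and 0.989 at day 0. Kdr, which encodes FLK1, measured 10.23, 6.25 and 6.03 in the sorted libraries, 5.42, 10.81 and 9.01 in cardiac cultures and 9.83, 10.71 and 10.27 in spontaneous cells, against 5.50, 5.54 and 5.78 at day 0. The libraries labelled sorted CPC replicates 2 and 3 and cardiac replicate 1 thus stood near day 0 in the gene of this sorting marker. The gene of the other sorting marker, Pdgfra, measured 11.13, 8.47 and 8.29 in the sorted libraries, 9.42, 10.26 and 9.60 in cardiac cultures and 10.35, 10.00 and 9.71 in spontaneous cells, against 8.75, 9.14 and 8.81 at day 0. For this gene sorted CPC replicates 2 and 3 lay below all day 0 arrays, while cardiac replicate 1 lay above them. Counts of calls against day 0, medians over the list and the values of several single genes are also given without these 3 libraries. The sorted group then holds 1 library, so only differences are read for it. Counts of such fits appear only in the last section, as a record of the processing. In bulk RNA, fewer cells of a type and less RNA per cell cannot be told apart.

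A gene was called when the limma model of all 12 arrays gave an adjusted p (Benjamini-Hochberg over 19938 genes) under 0.05 and an absolute log2 difference of at least 1. In sorted libraries 2 of the 46 WNT genes rose and 1 fell relative to day 0, where 0.787% and 1.32% of all genes rose and fell (2.11% together). In cardiac cultures 2 rose and 0 fell, against 1.26% and 0.943% of all genes (2.2% together). In spontaneous cells 8 rose and 1 fell, against 1.99% and 1.57% of all genes (3.57% together). At an unadjusted p under 0.05 the WNT counts were 19, 22 and 28 in sorted, cardiac and spontaneous cells, against 19.3%, 22.4% and 24% of all genes. Counted by arrays that did not overlap, 19 WNT genes were higher in all sorted libraries than in all day 0 arrays (10.2% of all genes), 17 in cardiac cultures (12.8%) and 29 in spontaneous cells (19.4%), and 3, 4 and 3 were lower (11.3%, 16.2% and 21.6%). Their median log2 difference from day 0 was 0.37 in sorted libraries, 0.37 in cardiac cultures and 0.41 in spontaneous cells, where the medians of all genes were 0.03, -0.05 and -0.03. The differences were positive in 39, 38 and 35 of the 46 genes, and in 39, 36 to 39 and 35 to 38 under the other scalings. The 3 comparisons share the day 0 arrays and are not independent of each other. The moderated F test over the 4 groups passed for 9 WNT genes (5.86% of all genes), namely Wls, Fzd5, Wnt11, Fzd2, Dkk3, Dkk1, Fzd7, Lgr5 and Tcf7l2.

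**Figure D1:**
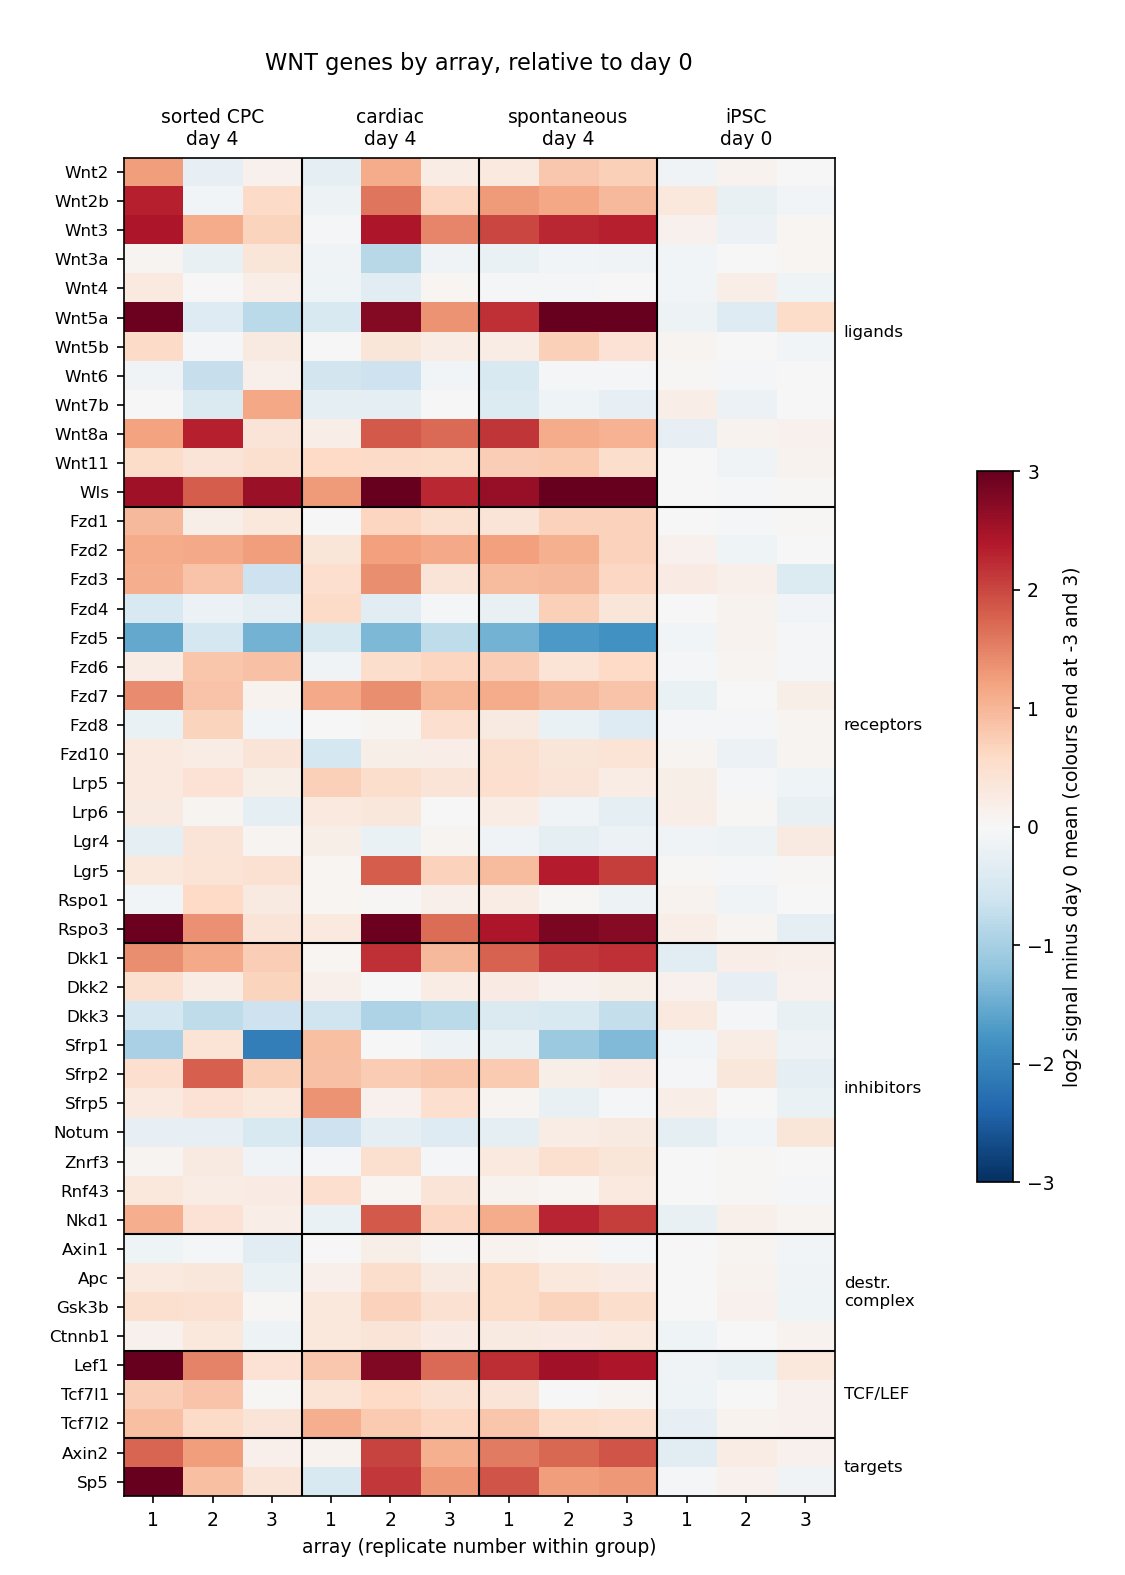
Log2 signal of each of the 46 WNT genes in each of the 12 arrays minus its mean at day 0, with genes in rows by class and arrays in columns by group (red is above and blue below the day 0 mean, and colours end at -3 and 3). Wls is red in every day 4 array. Wnt5a, Rspo3 and Lef1 are deep red in sorted CPC replicate 1, cardiac replicate 2 and the spontaneous arrays. They are pale or blue in cardiac replicate 1 and sorted CPC replicate 3. Sp5 shows the same pattern but is paler in the spontaneous arrays.

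Among ligands and their carrier, Wls rose in every day 4 group and Wnt3 rose in spontaneous cells, while 10 of the 12 genes of the class passed in no comparison. Wls, the membrane protein that escorts WNT ligands to the cell surface, measured 9.16, 8.42 and 9.20 in the sorted libraries, 7.89, 9.72 and 8.87 in cardiac cultures and 9.23, 10.03 and 9.84 in spontaneous cells, against 6.60, 6.58 and 6.65 at day 0. No day 4 array overlapped day 0, and cardiac replicate 1 was the lowest of the 9. Wls was higher than at day 0 by 2.32 ± 0.37 in sorted libraries (SE, 4.98-fold, adjusted p = 0.00339), by 2.22 ± 0.37 in cardiac cultures (4.65-fold, adjusted p = 0.00409) and by 3.09 ± 0.37 in spontaneous cells (8.5-fold, adjusted p = 0.000665). Wls passed in all 3 comparisons whichever array was left out.

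Wnt3, the ligand required for the primitive streak in the mouse, measured 8.68, 7.35 and 6.93 in the sorted libraries, 6.19, 8.69 and 7.71 in cardiac cultures and 8.25, 8.51 and 8.58 in spontaneous cells, against 6.38, 6.08 and 6.30 at day 0. Spontaneous arrays lay together above day 0, while cardiac and sorted arrays spread from near day 0 up to the spontaneous level. The difference from day 0 was 2.19 ± 0.51 in spontaneous cells (SE, 4.57-fold, adjusted p = 0.0178) and the gene no longer passed when replicate 1 or 2 of the day 0 group or replicate 2 or 3 of the spontaneous group was left out (adjusted p = 0.0553 to 0.0685). In sorted libraries and cardiac cultures Wnt3 differed from day 0 by 1.40 and 1.28 (adjusted p = 0.149 and 0.166). Wnt9b, which lies next to Wnt3 on chromosome 11, measured 6.65, 6.04 and 6.46 in the sorted libraries, 6.01, 5.86 and 6.21 in cardiac cultures and 5.97, 6.25 and 6.37 in spontaneous cells, against 6.17, 6.18 and 6.01 at day 0. Its sorted, cardiac and spontaneous arrays each overlapped the day 0 range.

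Wnt5a, a ligand known mainly for signalling that does not pass through beta-catenin, measured 9.05, 5.73 and 5.30 in the sorted libraries, 5.65, 8.87 and 7.46 in cardiac cultures and 8.29, 9.36 and 9.15 in spontaneous cells, against 5.95, 5.72 and 6.65 at day 0. Its day 4 arrays fell apart. Sorted CPC replicates 2 and 3 and cardiac replicate 1 were inside or below the day 0 range, and the other day 4 arrays were above it. The spontaneous difference of 2.83 ± 0.87 (SE) did not pass (adjusted p = 0.0596), and the differences of 0.58 in sorted libraries and 1.22 in cardiac cultures did not either (adjusted p = 0.787 and 0.418). The SD was 2.05 in the sorted group, 1.61 in cardiac cultures, 0.56 in spontaneous cells and 0.48 at day 0.

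Wnt8a, a ligand of the streak region, measured 7.05, 8.17 and 6.23 in the sorted libraries, 6.04, 7.68 and 7.54 in cardiac cultures and 7.98, 6.96 and 6.89 in spontaneous cells, against 5.59, 5.95 and 5.97 at day 0. All day 4 arrays exceeded day 0, with the highest value in sorted CPC replicate 2, but the differences of 1.31, 1.25 and 1.44 did not pass (adjusted p = 0.151, 0.151 and 0.0812 for sorted, cardiac and spontaneous). Wnt2b measured 8.18, 5.78 and 6.43 in the sorted libraries, 5.70, 7.45 and 6.49 in cardiac cultures and 7.14, 7.02 and 6.82 in spontaneous cells, against 6.17, 5.62 and 5.76 at day 0. Its highest value was in sorted CPC replicate 1, and its differences of 0.94, 0.69 and 1.14 did not pass (adjusted p = 0.343, 0.424 and 0.189). Wnt2 differed by 0.37, 0.35 and 0.60, with sorted CPC replicate 1 at 7.14 as its highest array.

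Wnt11, a ligand that takes part in heart formation and acts largely without beta-catenin, measured 7.23, 7.08 and 7.16 in the sorted libraries, 7.29, 7.25 and 7.25 in cardiac cultures and 7.43, 7.48 and 7.22 in spontaneous cells, against 6.68, 6.59 and 6.79 at day 0. Its arrays were tight within groups and all 9 day 4 arrays exceeded day 0. The differences of 0.47, 0.57 and 0.69 had adjusted p = 0.0374, 0.0137 and 0.00389 in sorted, cardiac and spontaneous cells, but lay under the minimum difference of 1. The remaining ligands, Wnt3a, Wnt4, Wnt5b, Wnt6 and Wnt7b, differed from day 0 by -0.41 to 0.46 in these comparisons and had adjusted p values of 0.122 or more. Among them Wnt7b reached 7.88 in sorted CPC replicate 3, while its other arrays lay between 6.27 and 6.90.

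**Figure D2:**
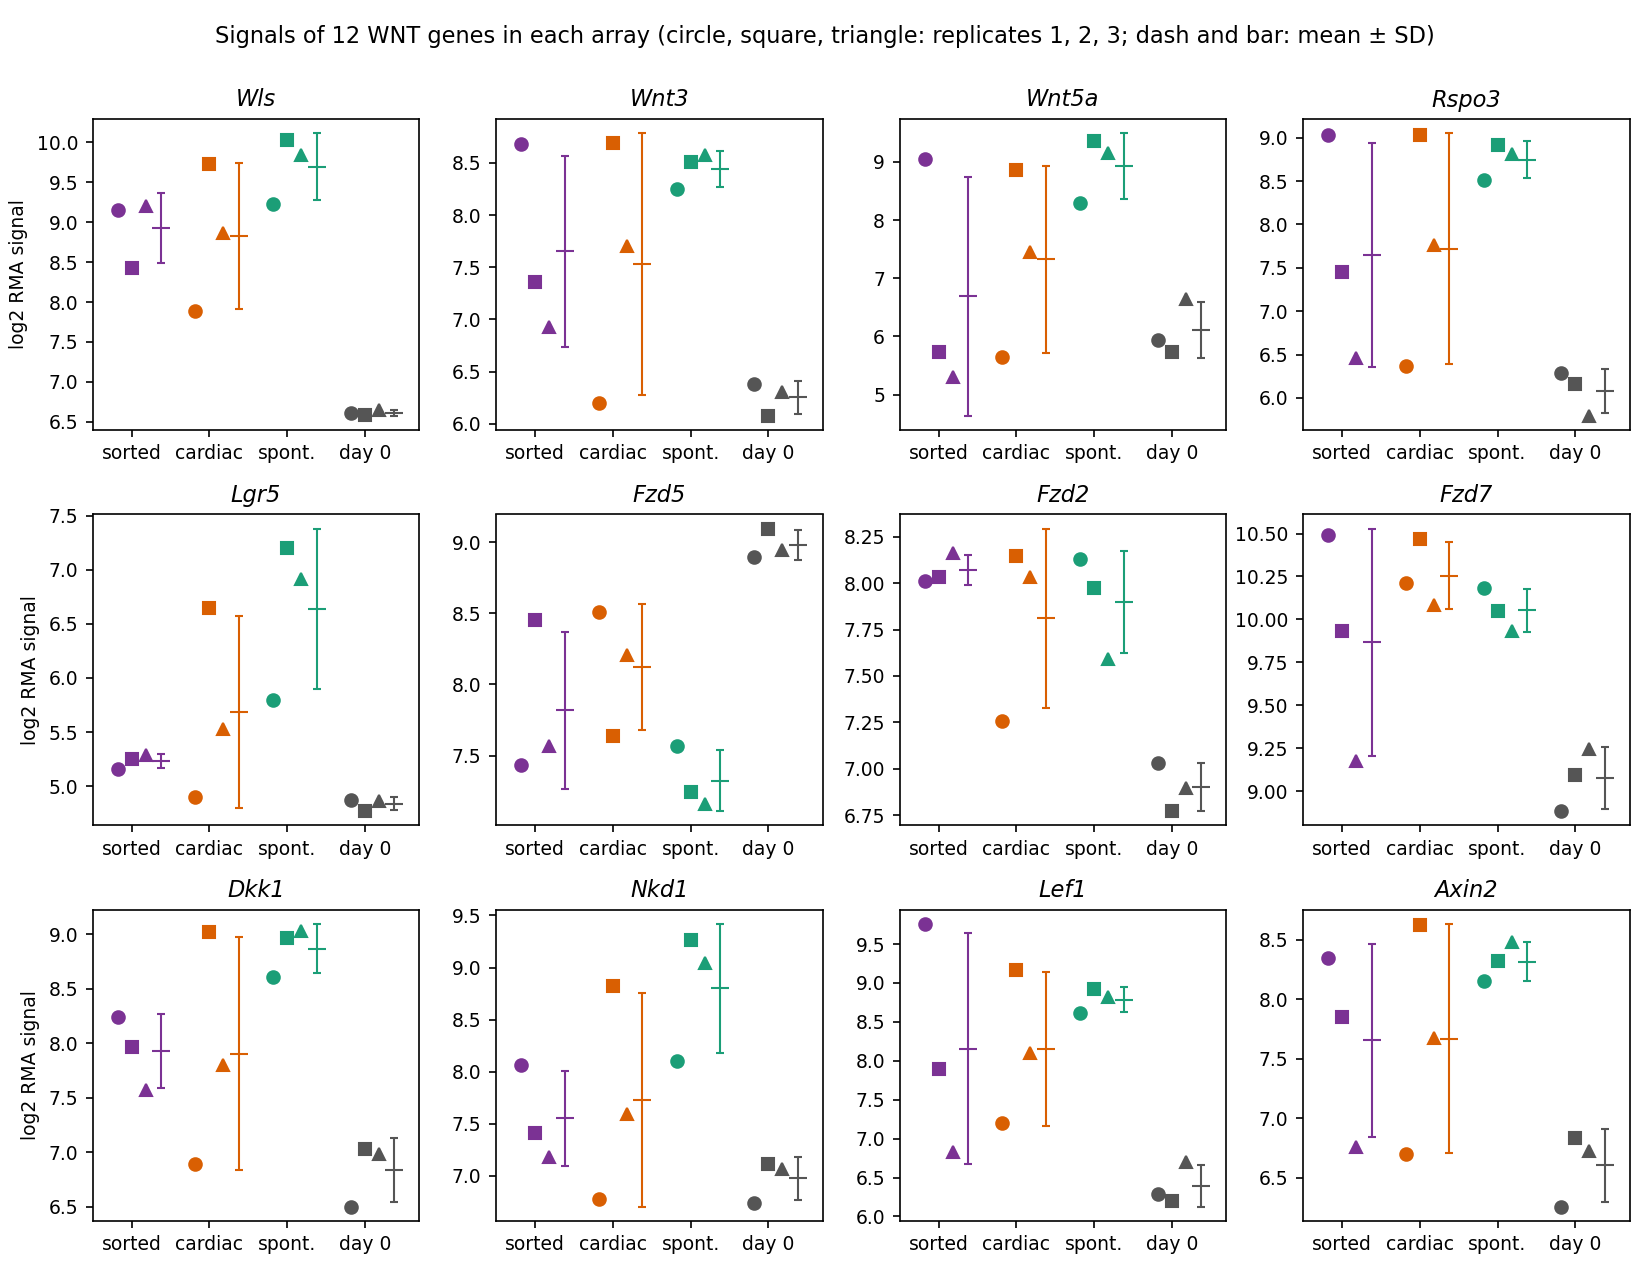
Log2 RMA signal of 12 WNT genes in each array, by group from sorted CPC through cardiac and spontaneous day 4 cells to day 0, with circles, squares and triangles for replicates 1, 2 and 3 and the mean ± SD beside them. Wls and Fzd2 are above and Fzd5 below day 0 in all day 4 arrays, while Wnt3, Wnt5a, Rspo3, Nkd1 and Axin2 stand at or close to the day 0 level in cardiac replicate 1.

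Among receptors, Frizzled genes changed in opposite directions: Fzd5 fell, Fzd2 and Fzd7 rose, each in some comparisons, and the R-spondin gene Rspo3 and its receptor gene Lgr5 rose in spontaneous cells. Fzd5, a Frizzled receptor, measured 7.43, 8.45 and 7.57 in the sorted libraries, 8.51, 7.64 and 8.21 in cardiac cultures and 7.57, 7.25 and 7.16 in spontaneous cells, against 8.90, 9.10 and 8.95 at day 0. All day 4 arrays were lower than all day 0 arrays. Fzd5 fell by 1.16 in sorted libraries (SE 0.26, 2.24-fold, adjusted p = 0.0216) and by 1.66 in spontaneous cells (SE 0.26, 3.15-fold, adjusted p = 0.00245), and differed by -0.86 in cardiac cultures (adjusted p = 0.0709). The sorted call did not hold with any 1 iPSC array or with sorted CPC replicate 1 left out (adjusted p = 0.0599 to 0.0862), and the spontaneous call held with any 1 array left out. With the 3 libraries in doubt left out, Fzd5 differed by -1.55 in the remaining sorted library, a single array. In cardiac cultures it then differed by -1.06 and was called (adjusted p = 0.00262). Cardiac replicate 1, left out there, was the cardiac array nearest to day 0.

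Fzd2, a further Frizzled receptor, measured 8.01, 8.03 and 8.16 in the sorted libraries, 7.26, 8.14 and 8.03 in cardiac cultures and 8.13, 7.97 and 7.59 in spontaneous cells, against 7.03, 6.78 and 6.90 at day 0. The sorted libraries had an SD of 0.08, the replicates with low Kdr included, and no day 4 array overlapped day 0. Fzd2 rose in sorted libraries by 1.17 ± 0.21 (SE, 2.24-fold, adjusted p = 0.00709), a call that held with any 1 array left out. Without sorted CPC replicates 2 and 3 its difference was 1.11 in the 1 sorted library left, which gives no spread of its own. Its differences in cardiac and spontaneous cells, 0.91 and 0.996 (adjusted p = 0.0254 and 0.0116), lay under the minimum of 1.

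Fzd7, a Frizzled receptor used by pluripotent stem cells, measured 10.49, 9.93 and 9.17 in the sorted libraries, 10.21, 10.47 and 10.08 in cardiac cultures and 10.18, 10.05 and 9.93 in spontaneous cells, against 8.88, 9.09 and 9.25 at day 0. Only sorted CPC replicate 3 lay inside the day 0 range. Fzd7 rose in cardiac cultures by 1.18 ± 0.25 (SE, 2.27-fold, adjusted p = 0.0158), which did not hold with iPSC replicate 1, iPSC replicate 2 or cardiac replicate 2 left out (adjusted p = 0.0547 to 0.0718). Its difference was 0.79 in sorted libraries (adjusted p = 0.0939) and 0.98 in spontaneous cells (adjusted p = 0.0261). Without the 3 libraries in doubt its difference was 1.42 in the remaining sorted library, a single array. Sorted CPC replicate 3, inside the day 0 range, was among those left out.

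Rspo3, a secreted protein that strengthens WNT signalling by binding Lgr receptors, measured 9.03, 7.45 and 6.46 in the sorted libraries, 6.37, 9.03 and 7.77 in cardiac cultures and 8.51, 8.92 and 8.82 in spontaneous cells, against 6.29, 6.16 and 5.80 at day 0. It reached 9.03 in sorted CPC replicate 1 and in cardiac replicate 2, and lay just above the highest day 0 array in cardiac replicate 1 and sorted CPC replicate 3. Rspo3 rose in spontaneous cells by 2.67 ± 0.61 (SE, 6.35-fold, adjusted p = 0.0163). The rise did not pass with any 1 iPSC array, spontaneous replicate 2 or spontaneous replicate 3 left out (adjusted p = 0.0505 to 0.0672), and the differences in sorted and cardiac cells were 1.56 and 1.64 (adjusted p = 0.18 and 0.135).

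Lgr5, a receptor of R-spondins and itself a WNT target, measured 5.16, 5.25 and 5.29 in the sorted libraries, 4.90, 6.65 and 5.52 in cardiac cultures and 5.80, 7.20 and 6.91 in spontaneous cells, against 4.88, 4.77 and 4.87 at day 0. The day 0 and sorted signals lay below the array medians, so the fold change may be understated. Lgr5 rose in spontaneous cells by 1.80 ± 0.38 (SE, 3.48-fold, adjusted p = 0.0113), and did not pass with spontaneous replicate 2 or 3 left out (adjusted p = 0.0533 to 0.0602). Unlike Rspo3, it was low in all 3 sorted libraries, replicate 1 included, and their difference from spontaneous cells was -1.40 (95% interval -2.22 to -0.58, adjusted p = 0.297).

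Of the uncalled receptors Fzd3, Fzd6 and Fzd1 had the largest range between groups. Fzd3 measured 7.84, 7.60 and 6.14 in the sorted libraries, 7.25, 8.13 and 7.13 in cardiac cultures and 7.69, 7.73 and 7.38 in spontaneous cells, against 7.01, 6.91 and 6.34 at day 0. Its sorted CPC replicate 3 lay below all other arrays, and its differences of 0.44, 0.75 and 0.85 did not pass (adjusted p = 0.593, 0.261 and 0.192). Fzd6 measured 7.51, 8.14 and 8.16 in the sorted libraries, 7.18, 7.82 and 7.93 in cardiac cultures and 8.03, 7.70 and 7.89 in spontaneous cells, against 7.25, 7.38 and 7.25 at day 0. All sorted and spontaneous arrays exceeded day 0, with differences of 0.64 and 0.58 (adjusted p = 0.108 and 0.107), against 0.35 in cardiac cultures (adjusted p = 0.343). Fzd1 measured 8.04, 7.26 and 7.39 in the sorted libraries, 7.09, 7.72 and 7.56 in cardiac cultures and 7.46, 7.77 and 7.76 in spontaneous cells, against 7.10, 7.02 and 7.12 at day 0. Its sorted and spontaneous arrays also exceeded day 0, and its differences of 0.49, 0.38 and 0.59 did not pass (adjusted p = 0.221, 0.295 and 0.0967). Lrp5, a coreceptor, differed from day 0 by 0.30 in sorted, 0.54 in cardiac and 0.36 in spontaneous cells (adjusted p = 0.267, 0.0404 and 0.132), and Lrp6 by 0.03, 0.22 and -0.06. Fzd4, Fzd8, Fzd10, Lgr4 and Rspo1 differed by -0.30 to 0.42. Lgr4, the close relative of Lgr5, lay between 9.56 and 10.22 in every array.

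Of the 10 inhibitors, Dkk1 and Nkd1 rose in spontaneous cells, and 8 were called in no comparison. Dkk1, a secreted antagonist of Lrp5 and Lrp6 and a WNT target, measured 8.24, 7.97 and 7.57 in the sorted libraries, 6.89, 9.02 and 7.80 in cardiac cultures and 8.61, 8.97 and 9.03 in spontaneous cells, against 6.50, 7.03 and 6.98 at day 0. All arrays of the sorted and spontaneous groups exceeded day 0, while cardiac replicate 1 lay inside the day 0 range. Dkk1 rose in spontaneous cells by 2.03 ± 0.39 (SE, 4.08-fold, adjusted p = 0.00707), a call that held with any 1 array left out. In sorted and cardiac cells the differences were 1.09 and 1.07 (adjusted p = 0.143 and 0.13).

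Nkd1, an intracellular antagonist that binds Dishevelled and is induced by WNT signals, measured 8.07, 7.41 and 7.19 in the sorted libraries, 6.78, 8.82 and 7.59 in cardiac cultures and 8.10, 9.26 and 9.04 in spontaneous cells, against 6.74, 7.12 and 7.07 at day 0. It rose in spontaneous cells by 1.82 ± 0.43 (SE, 3.54-fold, adjusted p = 0.0179), and did not pass with iPSC replicate 1 or 2, or with spontaneous replicate 2 or 3, left out (adjusted p = 0.0517 to 0.0884). Sorted libraries did not overlap spontaneous cells and were lower by 1.24, which did not pass (adjusted p = 0.346).

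Dkk3, a relative of the Dickkopf antagonists whose action on WNT signals is less clear, measured 6.46, 6.24 and 6.39 in the sorted libraries, 6.41, 6.07 and 6.19 in cardiac cultures and 6.56, 6.53 and 6.29 in spontaneous cells, against 7.29, 6.93 and 6.78 at day 0. It was lower than day 0 in all 9 day 4 arrays, with differences of -0.64, -0.78 and -0.54 (adjusted p = 0.0279, 0.0102 and 0.0402) that lay under the minimum of 1. Dkk2 differed by 0.45, 0.12 and 0.19 (adjusted p = 0.0796, 0.611 and 0.447).

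The secreted Frizzled-related proteins, which bind WNT ligands outside the cell, varied from array to array. Sfrp1 measured 7.08, 8.47 and 5.98 in the sorted libraries, 8.95, 8.05 and 7.90 in cardiac cultures and 7.83, 6.94 and 6.72 in spontaneous cells, against 7.98, 8.29 and 7.90 at day 0. Its lowest array was sorted CPC replicate 3 and its highest cardiac replicate 1, and differences of -0.88, 0.25 and -0.89 did not pass (adjusted p = 0.367, 0.778 and 0.303). Sfrp2 measured 8.38, 9.68 and 8.59 in the sorted libraries, 8.75, 8.65 and 8.71 in cardiac cultures and 8.68, 8.06 and 8.14 in spontaneous cells, against 7.82, 8.22 and 7.61 at day 0. Every sorted and cardiac array exceeded day 0, with differences of 1.00 and 0.82 that did not pass (adjusted p = 0.0665 and 0.112), against 0.41 in spontaneous cells (adjusted p = 0.438). Sfrp5 stood at 7.15 in cardiac replicate 1, above its range of 5.58 to 6.30 in the other 11 arrays. The remaining inhibitors, the deacylase gene Notum and the receptor-removing ubiquitin ligase genes Znrf3 and Rnf43, differed from day 0 by -0.43 to 0.38.

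The destruction complex and beta-catenin genes were called in no comparison, and their differences from day 0 lay between -0.16 and 0.58. Ctnnb1, the gene of beta-catenin, measured 11.15, 11.33 and 10.87 in the sorted libraries, 11.33, 11.41 and 11.28 in cardiac cultures and 11.29, 11.26 and 11.32 in spontaneous cells, against 10.90, 11.03 and 11.14 at day 0. Its differences were 0.10, 0.32 and 0.27 (adjusted p = 0.716, 0.117 and 0.163). Its arrays lay close together and the cardiac and spontaneous ones were all above day 0. Gsk3b, the kinase that marks beta-catenin, measured 8.77, 8.75 and 8.32 in the sorted libraries, 8.61, 8.98 and 8.74 in cardiac cultures and 8.84, 8.96 and 8.82 in spontaneous cells, against 8.28, 8.42 and 8.16 at day 0. It differed by 0.33, 0.49 and 0.58 (adjusted p = 0.266, 0.0797 and 0.0296). All cardiac and spontaneous arrays exceeded day 0, and 1 sorted library did not. Apc, a scaffold of the complex, measured 8.47, 8.52 and 7.98 in the sorted libraries, 8.33, 8.71 and 8.44 in cardiac cultures and 8.72, 8.50 and 8.43 in spontaneous cells, against 8.18, 8.29 and 8.07 at day 0. Its sorted CPC replicate 3 was the lowest array, and it differed by 0.14, 0.31 and 0.37 (adjusted p = 0.712, 0.283 and 0.198). Axin1, the constitutive scaffold, differed by -0.16, 0.08 and 0.04. These values are RNA levels, and neither the protein of beta-catenin nor its place in the cell was measured.

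Among the TCF/LEF factors, which bind DNA and recruit beta-catenin, Lef1 rose in spontaneous cells. Lef1 measured 9.76, 7.89 and 6.82 in the sorted libraries, 7.20, 9.17 and 8.10 in cardiac cultures and 8.61, 8.92 and 8.82 in spontaneous cells, against 6.28, 6.20 and 6.70 at day 0. All day 4 arrays exceeded day 0, from 6.82 in sorted CPC replicate 3 to 9.76 in sorted CPC replicate 1, the range being within the sorted group itself. Lef1 rose in spontaneous cells by 2.39 ± 0.59 (SE, 5.23-fold, adjusted p = 0.0226), but did not pass with iPSC replicate 1, iPSC replicate 2 or any 1 spontaneous array left out (adjusted p = 0.0529 to 0.0837). It differed by 1.76 from day 0 in both sorted and cardiac cells (adjusted p = 0.114 and 0.0982).

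Tcf7l2 measured 7.97, 7.64 and 7.45 in the sorted libraries, 8.16, 7.85 and 7.71 in cardiac cultures and 7.91, 7.62 and 7.58 in spontaneous cells, against 6.82, 7.19 and 7.20 at day 0. Its differences of 0.62, 0.83 and 0.63 (adjusted p = 0.0674, 0.0166 and 0.0405) lay under the minimum of 1, and cardiac replicate 1 was its highest array. Tcf7l1, which acts mostly as a repressor in pluripotent cells, measured 8.71, 8.83 and 8.01 in the sorted libraries, 8.38, 8.56 and 8.42 in cardiac cultures and 8.37, 7.96 and 8.05 in spontaneous cells, against 7.84, 7.96 and 8.11 at day 0. Its cardiac arrays all exceeded day 0, and it differed by 0.54, 0.48 and 0.15 (adjusted p = 0.144, 0.172 and 0.689). No member of this class was lower than day 0 on average.

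Of the targets, Axin2 rose in spontaneous cells. Axin2, a scaffold of the destruction complex that WNT signals induce as negative feedback, measured 8.35, 7.86 and 6.76 in the sorted libraries, 6.70, 8.63 and 7.68 in cardiac cultures and 8.15, 8.32 and 8.48 in spontaneous cells, against 6.26, 6.83 and 6.72 at day 0. The difference in spontaneous cells was 1.72 ± 0.43 (SE, 3.28-fold, adjusted p = 0.0246), and Axin2 did not pass when any 1 of the 6 arrays was left out (adjusted p = 0.0547 to 0.102). Sorted and cardiac cells differed from day 0 by 1.05 and 1.07 (adjusted p = 0.202 and 0.17). Sp5, a zinc finger factor and direct WNT target, measured 9.61, 7.40 and 6.89 in the sorted libraries, 6.04, 8.63 and 7.80 in cardiac cultures and 8.39, 7.75 and 7.81 in spontaneous cells, against 6.48, 6.64 and 6.39 at day 0. Its differences of 1.47, 0.99 and 1.48 did not pass (adjusted p = 0.237, 0.379 and 0.182), with SDs of 1.45 in the sorted group, 1.32 in cardiac cultures, 0.35 in spontaneous cells and 0.12 at day 0.

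A cross-class list of textbook feedback targets held Axin2, Sp5, Lef1, Lgr5, Nkd1, Notum, Znrf3, Rnf43 and Dkk1. With all arrays, limma called 0 of these 9 genes in sorted libraries and 0 in cardiac cultures, against 2.11% and 2.2% of all genes. There 4 and 6 had an unadjusted p under 0.05 (19.3% and 22.4% of all genes). In spontaneous cells 5 rose (1.99% of all genes). Without the 3 libraries in doubt, 6 were called higher in cardiac cultures (Axin2, Sp5, Lef1, Dkk1, Lgr5 and Nkd1). In spontaneous cells 6 were called higher, and the shares of all genes were 2.46% and 2.36%. Cardiac replicate 1 was the lowest cardiac array for the 6 genes called in cardiac cultures. Leaving it out therefore raised their cardiac differences by construction. In the 1 remaining sorted library the median difference of the 9 genes was 1.09, and 8 were positive. With all arrays their median difference from day 0 was 0.58, 0.85 and 1.72, against 0.03, -0.05 and -0.03 over all genes. The members that rose in spontaneous cells with all arrays were Axin2, Lef1, Lgr5, Nkd1 and Dkk1, while Notum, Znrf3 and Rnf43 had differences between -0.43 and 0.38.

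**Figure D3:**
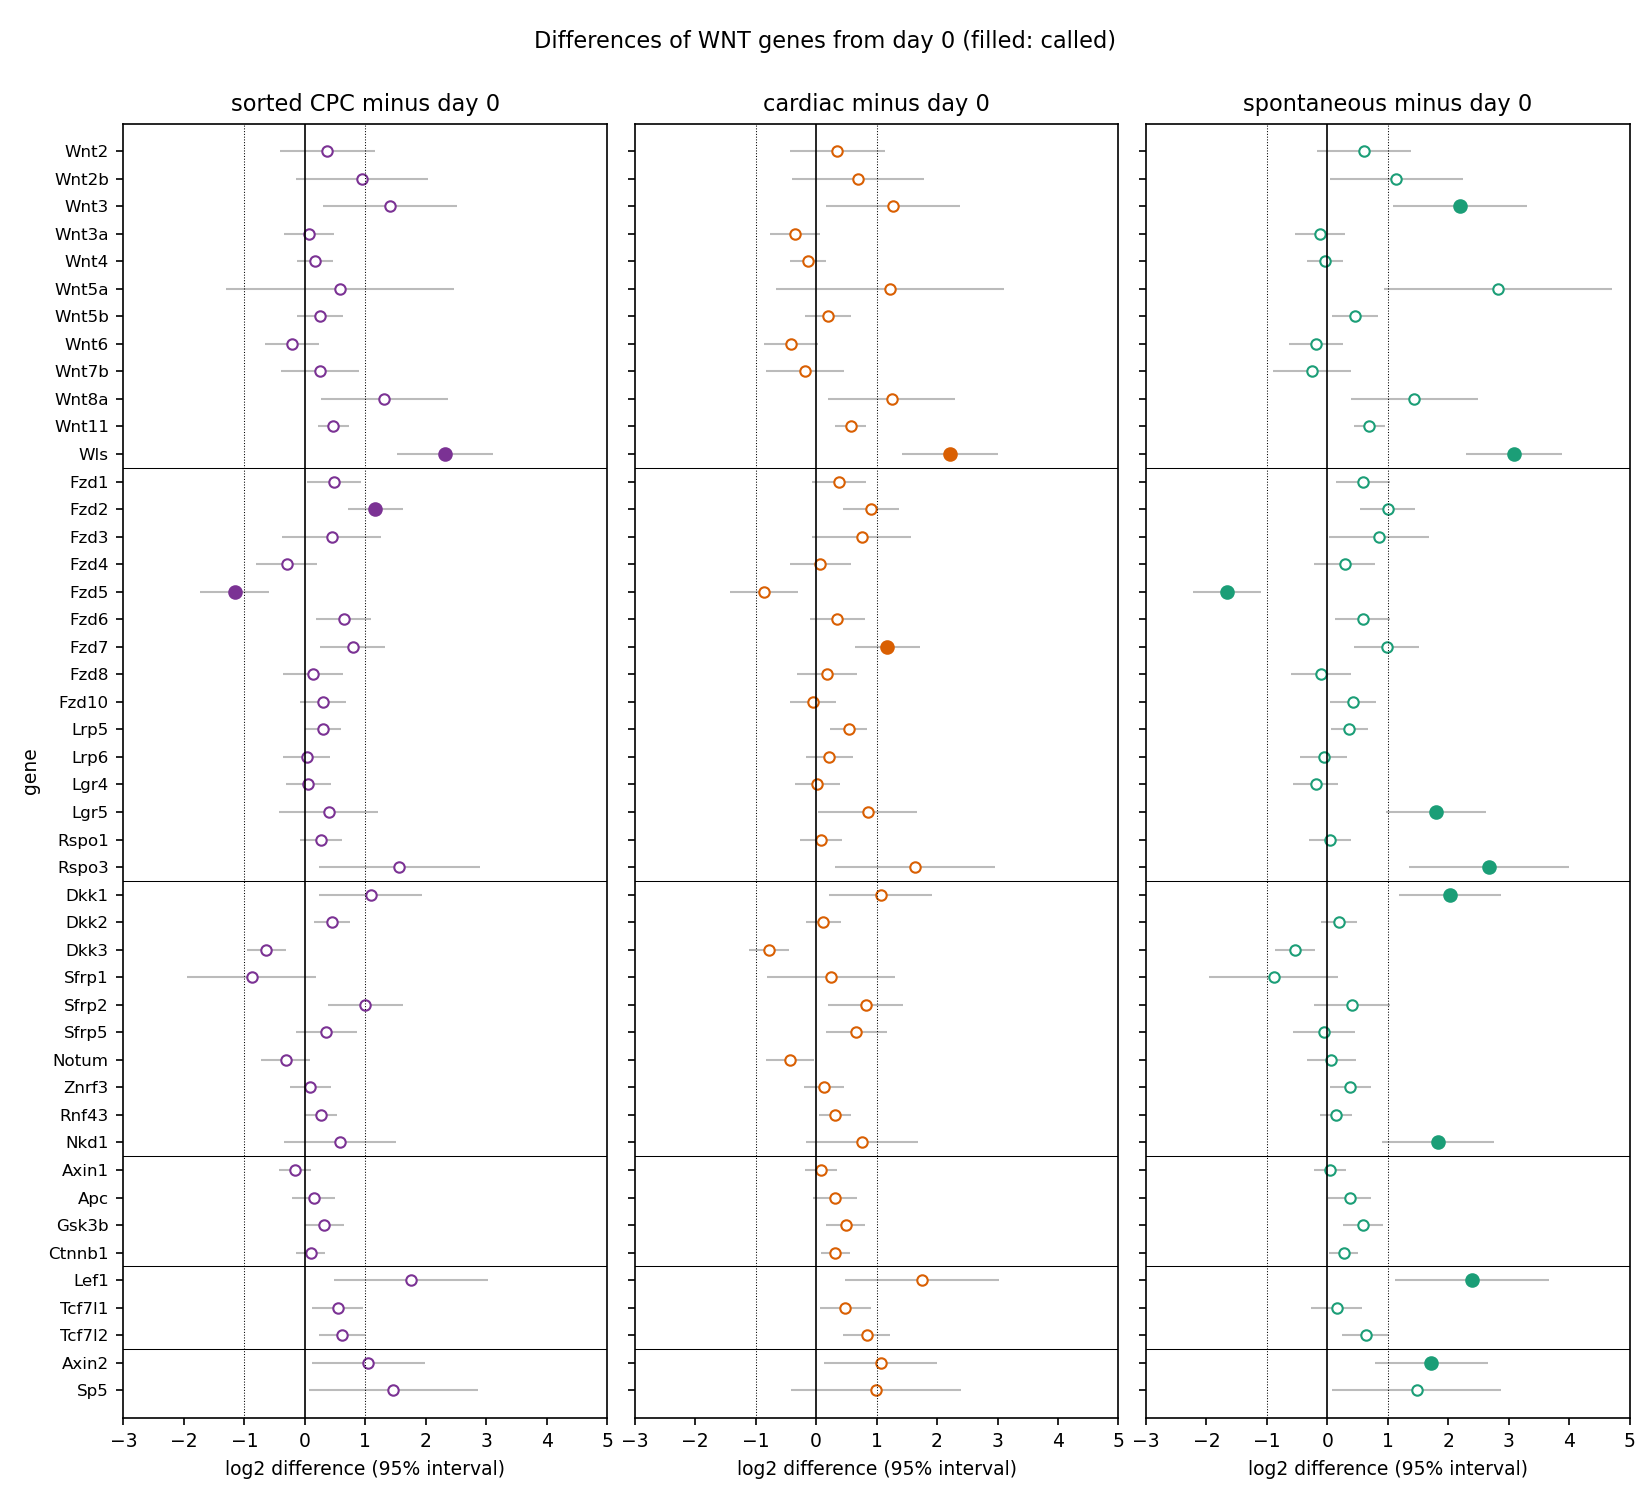
Log2 difference from day 0 with its 95% interval for each of the 46 WNT genes, in sorted CPC, cardiac and spontaneous cells from left to right, with filled points for called genes and dotted lines at the minimum difference of 1. Wls is filled in all 3 panels, 9 genes are filled in spontaneous cells, and the intervals of Wnt5a are the widest.

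Sequence upstream of the start site was looked at because several members called together are textbook targets of TCF/LEF factors. RefSeq promoter windows (GRCm38.p6, 250 bases before to 50 after a start site) matched 29 of the 46 members with 38 windows, and 17 members had no window in the table. The core CTTTGA was searched on both strands, as TCAAAG on the other strand. It was present in 7 of the 38 member windows (18.4%), against 16% of 32851 windows of all genes, and in 2 of 11 windows of called members (18.2%), so the share in members was close to that of all genes. The windows of members were richer in G and C, with a median of 65.8% against 52.7%. The bases before the start site are shown for Sp5, Dkk1 and Lef1, whose windows held the core at 2 places each, and for Axin2, a widely used WNT target, whose window held none; capitals mark the core.
Sp5, chr2:70474673-70474922, + strand: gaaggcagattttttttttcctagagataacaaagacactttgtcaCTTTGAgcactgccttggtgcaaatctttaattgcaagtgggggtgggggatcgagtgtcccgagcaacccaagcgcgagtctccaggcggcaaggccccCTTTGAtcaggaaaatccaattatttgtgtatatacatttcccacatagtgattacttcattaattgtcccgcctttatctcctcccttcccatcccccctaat
Dkk1, chr19:30549497-30549746, - strand: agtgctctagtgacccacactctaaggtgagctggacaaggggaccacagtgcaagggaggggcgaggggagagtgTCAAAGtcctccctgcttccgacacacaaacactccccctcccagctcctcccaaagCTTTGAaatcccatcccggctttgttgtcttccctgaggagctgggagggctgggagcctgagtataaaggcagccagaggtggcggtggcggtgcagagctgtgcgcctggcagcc
Lef1, chr3:131156044-131156293, + strand: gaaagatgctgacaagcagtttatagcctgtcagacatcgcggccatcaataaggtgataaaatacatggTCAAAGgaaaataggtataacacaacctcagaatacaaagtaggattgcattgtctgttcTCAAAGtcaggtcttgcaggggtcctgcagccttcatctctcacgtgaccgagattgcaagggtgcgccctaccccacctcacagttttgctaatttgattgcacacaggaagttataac
Axin2, chr11:108920099-108920348, + strand: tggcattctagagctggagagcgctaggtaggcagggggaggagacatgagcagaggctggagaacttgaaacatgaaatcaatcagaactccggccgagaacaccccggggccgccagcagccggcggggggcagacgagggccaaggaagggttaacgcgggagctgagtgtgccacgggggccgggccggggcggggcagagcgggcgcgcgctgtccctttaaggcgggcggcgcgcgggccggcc
In Sp5 the core began 204 and 104 bases before the start site, and the second match continued as CTTTGAT, which 3.73% of all windows held on either strand. Of the member windows 3 of 38 held it (7.89%), and of the windows of called members 0 of 11. In Dkk1 it began 174 and 117 bases before the start site. Lef1 has 4 windows, and the core was found in the one shown, 180 and 120 bases before that start site, and not in the others. The one shown lies farthest downstream. The others begin at chr3:131110047, chr3:131110073 and chr3:131112541. A match is a description of letters, and its absence from the Axin2 window says nothing about sites elsewhere in that gene.

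The 8 genes that rose in spontaneous cells gave a common order of the single arrays, shown as a description because the calls chose the genes. Each array was placed on a scale on which 0% is the gene's day 0 mean and 100% its spontaneous mean. The median over these genes was 92.2%, 53.5% and 21.4% in sorted CPC replicates 1, 2 and 3, and 4.47%, 109% and 62.9% in cardiac replicates 1, 2 and 3. Spontaneous arrays stood at 88.9%, 106% and 107%. In cardiac replicate 1, 4 of the 8 genes were at or below the highest day 0 array, as was 1 in sorted CPC replicate 3 and 0 in each other day 4 array.

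Wls departed from this order. It stood at 83.9% in sorted CPC replicate 3, where Axin2 stood at 9.17%, Nkd1 at 11.5%, Rspo3 at 14.2% and Lef1 at 17.9%. In cardiac replicate 1 Wls stood at 41.6% and Lef1 at 33.5%, while Nkd1 stood at -10.6% and Wnt3 at -2.67%. Lgr5 departed the other way in sorted CPC replicate 1, at 18.1%, where Lef1 stood at 141% and Wnt3 at 111%.

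**Figure D4:**
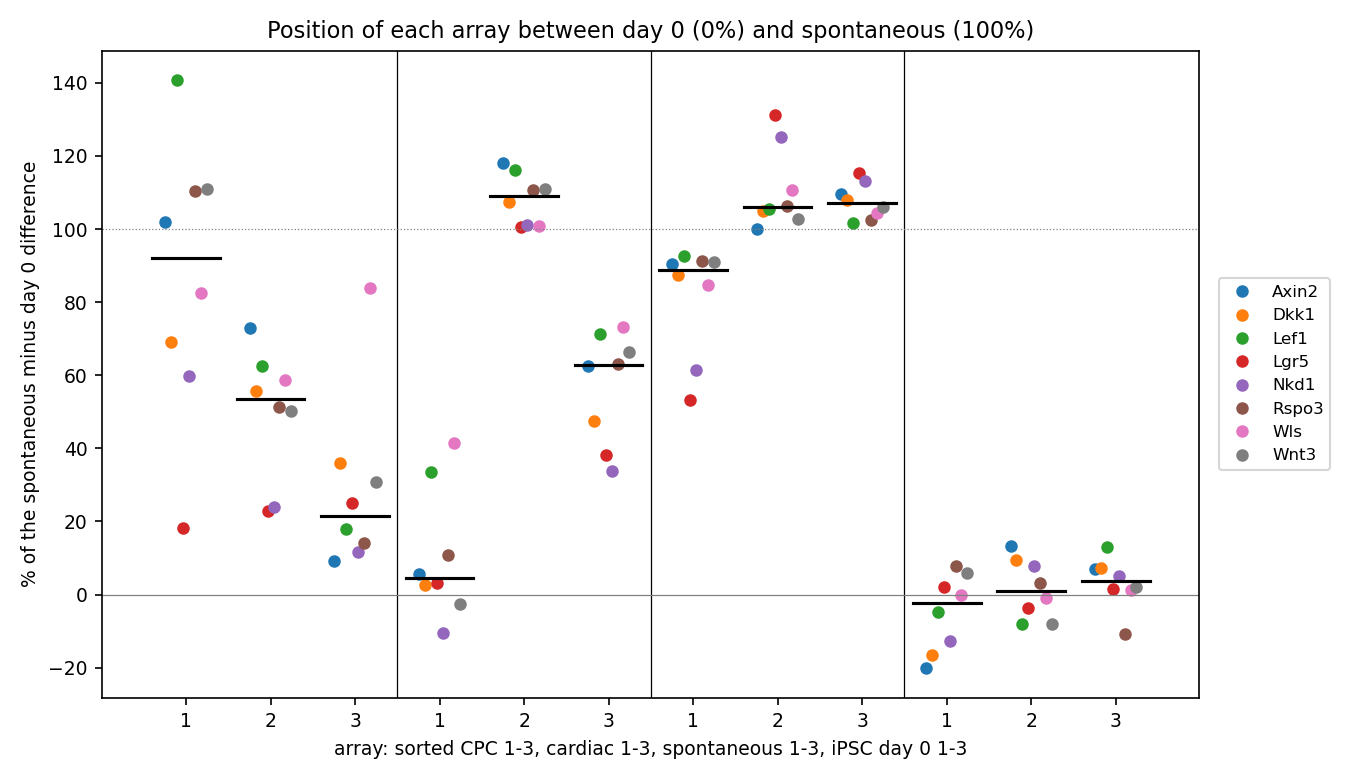
Position of each array between the day 0 mean (0%) and the spontaneous mean (100%) for the 8 WNT genes that rose in spontaneous cells, with 1 colour a gene and a black line at the median of the 8 genes. Among day 4 arrays the medians run from 4.47% in cardiac replicate 1 to 109% in cardiac replicate 2, and Wls lies far above the other genes in sorted CPC replicate 3.

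Marker lists varied between the same arrays. The summed linear signal of 9 streak and nascent mesoderm genes (9 of 10 listed) was 11536, 4520 and 1667 in sorted CPC replicates 1, 2 and 3, and 1258, 7850 and 4617 in cardiac replicates 1, 2 and 3, against 5837 to 6134 in spontaneous cells and 864 to 941 at day 0. The 10 cardiogenic mesoderm genes summed to 5453, 1383 and 1552 in the sorted libraries and 2329, 5284 and 2848 in cardiac cultures, against 4206 to 5339 and 1401 to 1686. In this sum sorted CPC replicates 2 and 3 were below and inside the day 0 range, and sorted CPC replicate 1 was above it. The sum includes Kdr and Pdgfra, by which these libraries were put in doubt. It is therefore no separate evidence on their label. Sums of 10 pluripotency genes were 3601 to 8353 in sorted, 5079 to 6434 in cardiac and 4312 to 5602 in spontaneous cells, against 12769 to 15975 at day 0. The 8 endoderm genes reached 5240 in cardiac replicate 1, above 952 to 2773 in the other day 4 arrays and 693 to 759 at day 0. Fibroblast and feeder genes summed to 489 to 694 at day 4 and 784 to 1357 at day 0, neuroectoderm genes to 643 to 1172 and 737 to 784, and endothelial and blood genes to 542 to 1265 and 724 to 945. The part of these cell type differences in the WNT results was not tested.

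Without sorted CPC replicates 2 and 3 and cardiac replicate 1, more WNT genes were called against day 0. The counts were then 14 higher and 1 lower in cardiac cultures, and 12 higher and 1 lower in spontaneous cells. Of all genes, that fit called 2.46% higher and 1.58% lower in cardiac cultures, and 2.36% and 1.82% in spontaneous cells. The sorted group then held 1 library, so its differences are given without calls. In sorted, cardiac and spontaneous cells the median difference of the WNT genes was then 0.40, 0.49 and 0.41, against 0.06, -0.05 and -0.03 over all genes. Of the WNT genes 36, 36 and 35 were positive. In sorted CPC replicate 1 Lef1 was 3.36 above day 0, Sp5 3.11 and Wnt5a 2.94. In cardiac cultures Rspo3 differed by 2.32 (adjusted p = 0.000357), Wnt5a by 2.05 (adjusted p = 0.0055) and Wnt3 by 1.94 (adjusted p = 0.000265). In spontaneous cells Wnt5a, Wnt8a, Wnt2b and Sp5 were added to the calls (adjusted p = 0.00025, 0.00159, 0.00389 and 0.000646). The arrays left out stood apart by values of genes that vary with these members, so these counts are no separate test of them.

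Leaving out 1 array changed the counts as well. The counts of all genes called also moved in such fits, and their ranges are given in the last section. Their shares fit by fit are not given, so the WNT counts below stand without the share of the same fit. With all arrays the shares were 2.2% in cardiac, 2.11% in sorted and 3.57% in spontaneous cells. The cardiac count of 2 became 10 without cardiac replicate 1, and 1 without iPSC replicate 1 or 2 or cardiac replicate 2. The sorted count of 3 became 9 without sorted CPC replicate 3 and 5 without cardiac replicate 1. The spontaneous count of 9 became 3 when spontaneous replicate 2 was left out, 4 when it was spontaneous replicate 3 or iPSC replicate 2, and 5 when it was iPSC replicate 1. Wls was called against day 0 in all 3 day 4 groups in each of these fits.

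Between day 4 groups, limma called 0 of the 46 WNT genes in each of the 3 comparisons, and of all genes 1 for sorted against spontaneous cells (0.00502%), 0 for sorted libraries against cardiac cultures (0%) and 0 for cardiac against spontaneous cells (0%). At an unadjusted p under 0.05 the WNT counts were 5, 4 and 9 in this order, or 10.9%, 8.7% and 19.6% of them, against 11.6%, 15.7% and 3.73% of all genes. Arrays that did not overlap were found for 2 WNT genes higher (9.44% of all genes) and 7 lower (10.2%) in sorted than in spontaneous cells, 1 higher (7.79%) and 2 lower (5.3%) in sorted than in cardiac cells, and 4 higher (5.23%) and 1 lower (3.77%) in cardiac than in spontaneous cells. The widest differences of sorted from spontaneous cells were those of Wnt5a (-2.24, 95% interval -4.13 to -0.35), Lgr5 (-1.40) and Nkd1 (-1.24). Cardiac cultures and spontaneous cells did not overlap in Fzd5 (0.80, 95% interval 0.23 to 1.36), Sfrp1 (1.14, 0.08 to 2.20) or Sfrp5 (0.72, 0.21 to 1.23), which were higher in cardiac cultures, each with adjusted p = 0.999. With the 3 libraries out, Sp5 was 1.63 higher in sorted CPC replicate 1, a single library, than in spontaneous cells. The sorted libraries left out stood at 7.40 and 6.89 in this gene, below all spontaneous arrays.

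A pattern shared by all day 4 groups was seen in 11 members. Every day 4 array exceeded every day 0 array for 9 of the 46 WNT genes (19.6%), against 4.65% of all genes, and below them for 2 (4.35%), against 5.15%. The higher ones were Wls, Wnt8a, Wnt11, Fzd2, Lgr5, Rspo3, Rnf43, Lef1 and Tcf7l2, and the lower ones Fzd5 and Dkk3. The separation was narrow for some: the lowest day 4 array of Lgr5 stood at 4.90 and its highest day 0 array at 4.88, and those of Rspo3 at 6.37 and 6.29.

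Another 66 genes of the pathway, not among the members, were counted for comparison. Of these, 1 rose in sorted libraries, 3 in cardiac cultures and 5 in spontaneous cells (0.787%, 1.26% and 1.99% of all genes), and 0 fell (1.32%, 0.943% and 1.57%), with medians of 0.12, -0.05 and -0.0069. Gpc3, a glypican that binds WNT ligands at the cell surface, rose in all 3 groups by 1.50, 2.49 and 2.49 (adjusted p = 0.0168, 0.00108 and 0.000784). Tmem88, a membrane protein that inhibits WNT signalling at Dishevelled, rose by 1.49 in cardiac and 2.34 in spontaneous cells (adjusted p = 0.0317 and 0.00242). Gpc4 rose by 1.35 in cardiac cultures (adjusted p = 0.0177). In spontaneous cells Myc rose by 1.85, the WNT inhibitor gene Apcdd1 by 1.75 and the WNT target Tnfrsf19 by 1.42 (adjusted p = 0.0458, 0.0301 and 0.0222). Gpc4 is the neighbour of Gpc3 on the X chromosome.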

How the data were processed

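The authors deposited 1 table of log2 signals for 12 single-colour Affymetrix gene arrays, for which the submitters' processing notes name RMA and Affymetrix Expression Console 1.3.1. RMA includes a background correction and gives all arrays 1 distribution, so a change shared by most genes would not show. That the scale is log2 follows from RMA and from values of 1.87 to 13.87. Of 35557 probe sets, 21789 had 1 gene symbol in the platform annotation, 1621 had several and were not used, and 19938 genes remained after the probe set with the highest mean was kept for each. Wnt4 was the member with 2 probe sets.

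All 12 arrays entered 1 model with a mean per group in limma 3.58.1 (R 4.3.3), the prior variance following signal intensity (8 residual and 5.01 prior degrees of freedom), two-sided moderated tests, and Benjamini-Hochberg adjustment over 19938 genes. SEs and 95% intervals are those of the moderated contrasts, and an SD is taken over the 3 arrays of its group. Precision is limited by the 3 arrays a group and by the spread between them. All members were described by class, with values of every array for called members and for uncalled ones with the largest range between groups, and the other pathway genes with the 6 largest called differences a comparison were named. Members, lists and libraries to leave out were chosen with earlier results of these data known. Same-numbered arrays did not deviate together (correlation over 0.1 in 6 of 18 pairs), so replicate numbers were not used as pairs. Alternatives were a replicate block, no trend, weights per array, leaving out dim genes, averaging probe sets, 3 scalings, fits of the 6 arrays compared, no minimum difference, and arrays left out.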

Additional observations from a re-analysis of the deposited data

How the results depend on the processing

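The 3 arrays a group and the spread between them limit the precision, and signals near the array medians bound what can be seen of dim genes such as Lgr5. Same-numbered arrays correlated best with their own number in 8 of 18 cases. The fit with the replicate number as a block called 9, 2 and 3 WNT genes against day 0 in spontaneous, cardiac and sorted cells, the same genes as without it, and 8 by the F test. No WNT gene reversed its direction among the calls under any alternative run, and leaving out the trend, the filter on dim genes, the mean of probe sets, the 3 scalings and the fits of 6 arrays kept the WNT counts within 1.5 times. The cause was not tested where counts moved. With array weights the WNT counts were 15 in spontaneous and 7 in sorted cells and 27 by the F test, and all genes called were 3 for cardiac against spontaneous and 0 for sorted against spontaneous, as also 0 with array medians centred or only 6 arrays. Shares of all genes against day 0 with array weights, and by the F test under any alternative, are not given here. Those WNT counts therefore stand without a background. With no minimum difference, by construction, the WNT counts were 15, 7 and 5 of 1943, 1231 and 1019 genes in spontaneous, cardiac and sorted cells against day 0. Without sorted CPC replicates 2 and 3, 8 WNT genes of 824 genes were called in sorted cells against day 0, 98 and 5 genes in sorted against cardiac and spontaneous cells, and 18 WNT genes by the F test. With cardiac replicate 1 also left out, the counts were 15 of 806 genes in cardiac and 14 of 1019 in sorted cells against day 0, 115 genes for sorted against cardiac, 1 WNT gene of 110 genes for sorted against spontaneous, and 25 WNT genes by the F test. In both fits without sorted CPC replicates 2 and 3 the sorted group held 1 library, which has no spread of its own. Their counts for sorted cells rest on the spread within the other groups. These counts show how the fit responds and are no test of sorted cells. Leaving out 1 array gave 3 to 11 WNT genes in spontaneous, 1 to 10 in cardiac and 2 to 9 in sorted cells against day 0, 0 in each comparison between day 4 groups, and 1 to 15 by the F test. For all genes these ranges were 430 to 771, 284 to 653 and 294 to 608 in spontaneous, cardiac and sorted cells against day 0, 0 to 1 for cardiac against spontaneous and for sorted against cardiac, and 0 to 18 for sorted against spontaneous. With all arrays, 711, 439 and 420 genes were called.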
